A study of Mus musculus with 46 samples.

Results

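Liver tumours in which a Myc transgene had been switched off for 16 hours (Myc-off tumours) were compared with tumours in which it was still on (Myc tumours). The comparison used 24 of the 46 RNA-seq libraries of the series, chosen by their titles alone: 8 Myc-off tumours from 3 animal IDs and 16 Myc tumours from 7 animal IDs. All mice were of the FVB strain. The Myc-off tumours carried tet-Myc and LAPtTA and came from mice fed doxycycline for 16 hours, which stops transcription of tet-Myc. The Myc tumours carried the same alleles with tet-Myc on. Livers with the source label normal liver, here called control livers, came from 11 IDs and served to place the levels. No genotype is given for them here. LAPtTA drives tet-Myc from a liver-specific promoter, and per the labels the transgene was induced before birth, so both tumour groups arose under it. Libraries of 11 tumours with a variant transgene, tet-MycVD, entered nothing but the shared estimate of spread.

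The labels name doxycycline only for the switch-off, so the drug's own effect cannot be told apart from the loss of transgenic Myc. The Myc-off IDs are numbered above all other IDs compared here, so date and batch cannot be told apart from it either. Time of day at collection was not given in the sources used here. Animal IDs were taken as animals, which the labels do not state outright, and the p-values measure the spread between IDs.

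Myc is a transcription factor that binds DNA as a pair with Max, most firmly at the E-box CACGTG. It is known for raising genes of ribosome production, nucleotide synthesis and cell division, and for lowering others in part through Miz1. The normal hepatocyte makes plasma proteins, bile acids and glucose and detoxifies drugs, and much of this programme is lost when liver cells divide as tumours.

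Values are exonic RPKM (eRPKM), reads per kb of exon scaled to library depth. Whole reads recovered from the values totalled 3.25 to 10.4 M per Myc-off library, 7.27 to 12.6 M per Myc library and 5.63 to 8.95 M per control library, so the Myc-off libraries include the shallowest. Levels of abundant genes ran into a ceiling: the highest gene of each library had 1460 to 2181 reads per kb, and 1479 genes averaged over 400 reads per kb, among them 70 of 85 cytosolic ribosomal protein genes. Gapdh was under 30 eRPKM in 8 libraries, of which 5 were Myc and 0 Myc-off. Hepatocyte markers were present in all tumours, as the 13 markers summed to 837 to 2000 eRPKM in Myc-off tumours, 610 to 1118 in Myc tumours and 1520 to 2473 in control livers. The sums of Myc tumours thus lay below all control livers. Of the 13 markers 10 averaged over 400 reads per kb. The labels do not state the species of the transgene, so the mouse Myc row does not measure it.

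Log2 values of tumours that share an ID were averaged, with 0.5 added to each eRPKM, and the values below are these averages turned back into eRPKM. Myc-off values stand for ID150584, ID151964 and ID153344 in this order, and Myc and control values as the lowest, the median and the highest ID. Of 14548 genes tested with limma, 7343 (50.5%) differed at an adjusted p under 0.05 between Myc-off and Myc tumours. Of these, 3232 (22.2%) were higher and 4111 (28.3%) lower in Myc-off, with a median log2 fold change of -0.01 over all genes tested. At least 2-fold changes numbered 2586 (17.8%), 1140 up and 1446 down, and at least 4-fold changes 256 up and 220 down. With a term for library depth, 6668 genes were called, and 4222 when that fit held the tumours of these 3 and 7 IDs alone (the depth fit over the tumour IDs alone). Without the 8 libraries of low Gapdh 7938 were called, and without the shallowest Myc-off library 7268. The groups did not overlap in ID values for 6641 genes (45.6%). Among called genes this held for 2544 of the 3232 rises and 3589 of the 4111 falls. A share of a gene list near these backgrounds is therefore not particular to the list.

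Single partners and antagonists of Myc changed in both directions. Of 13 members of the Myc-Max network, 5 fell (Max, Mxi1, Mxd3, Mnt and Mlxip) and 4 rose (Mxd1, Mxd4, Mlx and Mycl). These shares of 38.5% and 30.8% lie near the 28.3% and 22.2% of all genes, so the counts are not particular to the network. In the depth fit over the tumour IDs alone 3 fell and 0 rose, Mlx and Mlxip missed the threshold and Mnt changed sign (0.14, adjusted p = 0.68). Max, the partner that Myc needs to bind DNA, had 25.1, 25.6 and 26.1 eRPKM in Myc-off tumours, against 39.2, 42.5 and 46.2 in Myc tumours. The control livers had 14.2, 17.1 and 28.1, a range that held the Myc-off IDs. Mxi1, which pairs with Max and represses, had 8.94, 6.48 and 8.48 in Myc-off tumours, 14.6, 15.8 and 16.8 in Myc tumours and 7.08, 8.95 and 9.96 in control livers (log2 fold change Myc-off over Myc -0.95 ± 0.09 SE, adjusted p = 7.6e-10). The Myc-off IDs thus lay within or below the range of control livers. Mxd3, a Max partner made in dividing cells, fell by 1.13 on the log2 scale (SE 0.22, adjusted p = 9.5e-05). Mxd4, a Max partner of resting cells, moved the other way and had 52.0, 42.8 and 52.4 eRPKM in Myc-off tumours against 26.0, 32.6 and 36.4 in Myc tumours (0.65 ± 0.12, adjusted p = 5.5e-05), although it missed the threshold in that fit too (adjusted p = 0.13). The rise of Mxd1 rested on ID150584, whose value was 32.4 eRPKM beside 10.5 and 12.3, and without that ID its log2 fold change was 0.25 (adjusted p = 0.52). That of Mycl, at 0.627, 3.83 and 0.824 in Myc-off tumours and 0.228, 0.494 and 0.944 in Myc tumours, rested on ID151964 (0.30 without it, adjusted p = 0.51). The mouse Myc gene had 4.68, 8.78 and 4.01 eRPKM in Myc-off tumours, 6.27, 7.06 and 10.8 in Myc tumours and 1.46, 5.56 and 18.2 in control livers, and the groups overlapped (adjusted p = 0.50).

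The 15 largest falls left little of the Myc tumour level after 16 hours. Hpdl, an enzyme of the hydroxyphenylpyruvate dioxygenase family, had 0.235, 0 and 0.318 eRPKM in Myc-off tumours and 31.3, 38.8 and 43.4 in Myc tumours, a log2 fold change of -5.84 ± 0.24. The control livers had 0.103, 0.313 and 0.776, so the Myc-off IDs lay within or below the range of normal liver. Car12, a carbonic anhydrase of the cell surface, had 0.440, 0.301 and 0.223 in Myc-off tumours and 36.1, 39.6 and 43.9 in Myc tumours. Nr1h5, a nuclear receptor of the Fxr family, had 1.59, 1.80 and 2.63 in Myc-off tumours and 53.4, 62.6 and 67.2 in Myc tumours. The 15 falls were chosen among genes without overlap of ID values, so a gap between the groups is part of the choice. Dctd, which deaminates dCMP on the way to dUMP, had 1.11, 1.25 and 1.49 in Myc-off tumours against 26.8, 29.6 and 31.2 in Myc tumours. Its Myc-off values stayed above the 0.0432, 0.209 and 0.428 of control livers (adjusted p against control 4.2e-10). Ccnb1ip1, which acts in meiotic crossing over, differed among the Myc-off IDs at 5.40, 0.906 and 2.60, far below the 39.4, 55.3 and 58.2 of Myc tumours in each. Other falls of this set were Lingo3, Camkv, Stc2, Arhgdig, Rragb, Rcor2, Ccdc116, Wdr31 and Impa2, with log2 fold changes of -4.64 to -3.41. Among them Rragb encodes a Rag GTPase that signals amino acid supply to mTORC1, and Rcor2 a partner of the histone demethylase Lsd1.

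**Figure D1:**
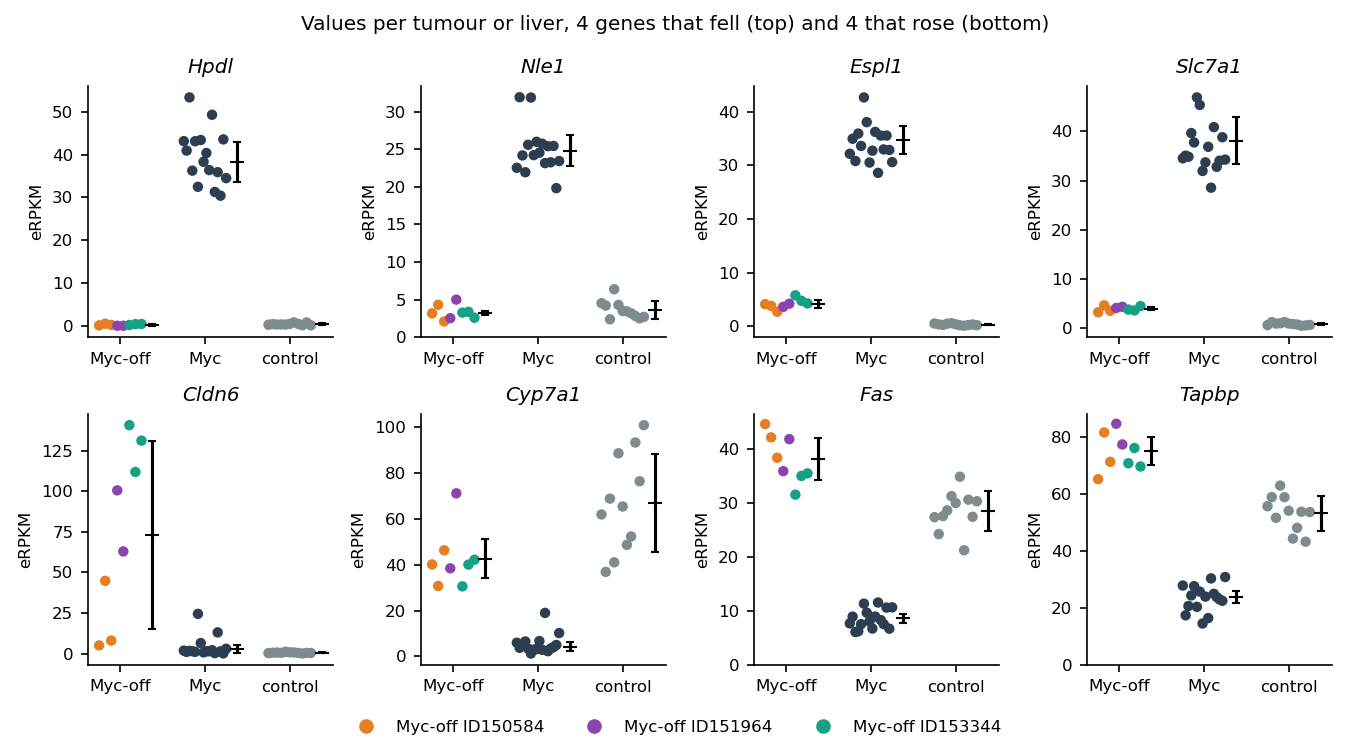
Each point is a tumour or liver, with eRPKM on the vertical axis, Myc-off tumours coloured by animal ID, and the bar with whiskers is the mean and SD over ID values. Hpdl, Nle1, Espl1 and Slc7a1 lie far lower in all 8 Myc-off tumours than in the 16 Myc tumours, and Cldn6, Cyp7a1, Fas and Tapbp higher in each Myc-off ID, with Cldn6 lowest in ID150584.

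The promoter windows of the genes that fell held the E-box CACGTG more often than those of the genes that rose. Windows of 300 bases, 250 before and 50 after each RefSeq start (GRCm38.p6), were matched by symbol for 11156 of the 14548 genes tested. CACGTG, which reads the same on both strands, stood in 12% of 3946 windows of genes called lower, in 8.06% of 3263 windows of genes called higher, in 9.03% of 6879 windows of genes not called and in 7.15% of all 32851 windows. The share was 13.9% for falls of at least 2-fold and 18.8% for falls of at least 4-fold, against 5.69% and 4.21% for rises of these sizes. Windows of the lower genes also held more CG pairs, with medians of 22 for lower, 16 for higher and 18 for genes not called. Among windows with at least 30 CG pairs, 14.8% of the lower, 10.5% of the higher and 10.7% of the other genes held CACGTG, and among those with 20 to 29 CG pairs 12.4%, 10.2% and 12.4%. These shares are descriptions of letters in a window and not of binding.

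Of the 15 largest falls, 12 had a window and 4 of these held CACGTG, whereas 0 of the 13 windows of the 15 largest rises did. The windows of these 4 falls are printed to show the copies and their place, with each CACGTG in capitals. Lingo3 lies at chr10:80843990-80844289 on the minus strand, Rragb at chrX:153139708-153140007 on the plus strand, Rcor2 at chr19:7267144-7267443 on the plus strand and Wdr31 at chr4:62470850-62471149 on the minus strand (GRCm38.p6). Each sequence runs 5′ to 3′ along its gene, and the window of Rragb holds 3 copies.
Lingo3: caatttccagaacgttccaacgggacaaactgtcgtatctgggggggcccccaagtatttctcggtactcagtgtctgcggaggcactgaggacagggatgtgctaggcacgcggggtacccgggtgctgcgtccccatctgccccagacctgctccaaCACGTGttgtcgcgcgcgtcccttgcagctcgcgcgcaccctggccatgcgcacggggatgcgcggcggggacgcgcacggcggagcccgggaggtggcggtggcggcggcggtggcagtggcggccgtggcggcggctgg
Rragb: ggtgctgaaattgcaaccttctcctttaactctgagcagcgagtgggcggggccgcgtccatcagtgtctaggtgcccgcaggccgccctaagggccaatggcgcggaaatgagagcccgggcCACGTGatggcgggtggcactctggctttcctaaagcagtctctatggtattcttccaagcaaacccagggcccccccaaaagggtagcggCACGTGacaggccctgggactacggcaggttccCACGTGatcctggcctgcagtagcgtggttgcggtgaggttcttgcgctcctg
Rcor2: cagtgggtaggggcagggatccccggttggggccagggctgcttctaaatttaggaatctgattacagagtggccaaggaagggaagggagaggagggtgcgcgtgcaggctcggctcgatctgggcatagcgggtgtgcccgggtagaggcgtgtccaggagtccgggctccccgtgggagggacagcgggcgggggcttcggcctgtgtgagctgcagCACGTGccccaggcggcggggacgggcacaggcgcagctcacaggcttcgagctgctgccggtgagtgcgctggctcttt
Wdr31: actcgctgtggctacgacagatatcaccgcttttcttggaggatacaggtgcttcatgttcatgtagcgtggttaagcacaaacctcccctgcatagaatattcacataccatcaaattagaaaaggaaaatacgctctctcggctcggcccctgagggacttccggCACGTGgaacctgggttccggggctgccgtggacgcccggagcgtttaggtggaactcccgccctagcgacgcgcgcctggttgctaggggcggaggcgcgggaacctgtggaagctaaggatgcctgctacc

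The windows of the 2 falls ranked highest, Hpdl and Car12, held no CACGTG. They are printed with the 2 highest ranked rises with a window, Cldn6 and Cyp2a12, which held none either, so that windows of like rank can be read side by side. Hpdl lies at chr4:116821459-116821758 on the minus strand, Car12 at chr9:66713436-66713735, Cldn6 at chr17:23679115-23679414 and Cyp2a12 at chr7:27028840-27029139, all on the plus strand (GRCm38.p6).
Hpdl: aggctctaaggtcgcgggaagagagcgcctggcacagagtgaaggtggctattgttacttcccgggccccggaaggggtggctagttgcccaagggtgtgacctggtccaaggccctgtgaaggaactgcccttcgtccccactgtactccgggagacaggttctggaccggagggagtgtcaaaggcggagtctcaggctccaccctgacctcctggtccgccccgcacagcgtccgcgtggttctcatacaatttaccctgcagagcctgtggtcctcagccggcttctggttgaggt
Car12: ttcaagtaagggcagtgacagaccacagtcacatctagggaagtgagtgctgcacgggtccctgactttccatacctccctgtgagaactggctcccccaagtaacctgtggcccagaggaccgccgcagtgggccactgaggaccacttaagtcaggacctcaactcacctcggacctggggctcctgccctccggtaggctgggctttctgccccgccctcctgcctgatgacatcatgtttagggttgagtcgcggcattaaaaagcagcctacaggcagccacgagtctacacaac
Cldn6: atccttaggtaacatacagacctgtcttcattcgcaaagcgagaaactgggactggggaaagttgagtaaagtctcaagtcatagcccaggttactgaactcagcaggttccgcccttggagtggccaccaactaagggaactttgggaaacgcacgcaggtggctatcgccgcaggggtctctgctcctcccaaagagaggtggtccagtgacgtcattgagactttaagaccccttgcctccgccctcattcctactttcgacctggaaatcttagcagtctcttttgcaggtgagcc
Cyp2a12: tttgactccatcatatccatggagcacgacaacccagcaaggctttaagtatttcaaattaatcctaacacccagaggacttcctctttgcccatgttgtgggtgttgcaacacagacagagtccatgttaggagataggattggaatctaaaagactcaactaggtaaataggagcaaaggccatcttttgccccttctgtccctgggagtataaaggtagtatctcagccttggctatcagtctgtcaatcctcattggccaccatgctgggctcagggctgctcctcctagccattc

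Genes of ribosome production fell as whole lists. All 44 tested members of the list of nucleolar ribosomal RNA processing and small nucleolar ribonucleoprotein genes were lower in Myc-off tumours. Their median log2 fold change was -1.58, and 43 did not overlap between the groups, beside 3589 of the 4111 falls over all genes. In each alternative fit at least 43 stayed lower. Nle1, an assembly factor of the large ribosomal subunit, had 3.08, 3.58 and 3.06 eRPKM in Myc-off tumours, against 21.6, 24.8 and 28.6 in Myc tumours and 2.38, 3.43 and 6.38 in control livers. Rrp12, which acts in the export of both subunits, had 4.29, 8.56 and 5.33 in Myc-off tumours and 34.2, 40.9 and 46.4 in Myc tumours. Rrp1b had 6.53, 8.92 and 7.64 in Myc-off tumours and 48.1, 49.5 and 54.3 in Myc tumours, yet stayed above the 3.02 to 5.31 of control livers. Against control liver the list had a median log2 fold change of 0.02, with 11 members higher and 7 lower in Myc-off tumours.

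The polymerases that transcribe ribosomal and transfer RNA followed. Of 15 genes of the RNA polymerase I machinery 13 fell (86.7%, median -0.84), and of 22 genes of the RNA polymerase III machinery 16 fell (72.7%, median -0.53), with none higher in either list. Polr1b, the second largest subunit of polymerase I, had 9.33, 13.4 and 12.5 eRPKM in Myc-off tumours, 48.0, 52.7 and 56.8 in Myc tumours and 11.2, 13.2 and 16.9 in control livers. Polr3g, the polymerase III subunit of growing and stem cells, had 8.22, 7.53 and 8.14 in Myc-off tumours and 20.8, 22.9 and 26.1 in Myc tumours. Its Myc-off values lay below all control livers, whose lowest ID had 8.67 (adjusted p against control 0.0011). Gtf3a, the factor for 5S ribosomal RNA, fell by 1.27 (SE 0.14). Of the 8 host genes of small nucleolar RNAs 7 fell, but Snhg1 at 25.3, 21.3 and 29.3 eRPKM in Myc-off tumours stayed between the 48.6, 55.2 and 60.8 of Myc tumours and the 3.27, 8.59 and 11.3 of control livers.

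Transport through the nuclear pore and translation changed in the same direction. Of 31 genes of the Ran cycle and nuclear transport 30 fell (96.8%, median -0.93). Rangrf, a Ran-binding factor, had 8.57, 11.3 and 9.43 eRPKM in Myc-off tumours and 35.8, 41.2 and 46.7 in Myc tumours. Rcc1, the exchange factor that loads Ran with GTP, had 10.8, 13.6 and 12.7 in Myc-off tumours and 41.5, 48.1 and 50.8 in Myc tumours. Aminoacyl-tRNA synthetases charge transfer RNAs, and 17 of 23 cytosolic (10 in the depth fit over the tumour IDs alone) and 15 of 17 mitochondrial members fell. Vars, for valine, had 13.4, 22.2 and 16.0 in Myc-off tumours, against 66.8, 72.5 and 76.2 in Myc tumours. Mars2, the mitochondrial enzyme for methionine, had 5.66, 5.77 and 6.89 in Myc-off tumours and 32.7, 37.4 and 43.5 in Myc tumours. Among 38 initiation factors 23 fell, and Eif4e, the cap-binding protein, was at 29.8, 35.1 and 34.6 in Myc-off tumours beside 54.8, 58.2 and 62.5 in Myc tumours (-0.81 ± 0.12). The 34 SR and hnRNP splicing regulators gave 22 falls and 1 rise. Prmt5, an arginine methyltransferase, had 17.0, 18.8 and 17.8 in Myc-off tumours and 54.0, 55.4 and 68.4 in Myc tumours (-1.70 ± 0.12).

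How many genes of the ribosomal proteins themselves fell depended on the scaling. Of 85 cytosolic ribosomal protein genes 10 fell and 2 rose, below the shares of all genes, and their median log2 fold change was 0.10. The split moved with the scaling, as 32 fell and 0 rose with a depth term and 37 fell and 0 rose after quantile normalisation. Of these 85 genes 70 averaged over 400 reads per kb, and the read ceiling limits the comparison of abundant genes. Rps24 and Rps15a, which lie lower, had 21.6, 21.7 and 23.5 and 13.3, 11.2 and 12.6 eRPKM in Myc-off tumours, against 37.5, 39.0 and 41.0 and 19.2, 21.9 and 24.8 in Myc tumours. Mitochondrial ribosomal proteins fell more often, 52 of 76 (median -0.41) with none higher. Mrps27 had 13.1, 10.2 and 11.4 in Myc-off tumours, 29.1, 31.4 and 37.8 in Myc tumours and 16.4, 18.97 and 27.8 in control livers, so that it went below normal liver (log2 fold change against control -0.76, adjusted p = 1.2e-05). Of 28 regulators of mitochondrial biogenesis 22 fell, among them Pprc1, a coactivator of mitochondrial genes (-1.95 ± 0.17), and Peo1, the mitochondrial DNA helicase (-1.56 ± 0.13). Of 79 subunits of oxidative phosphorylation 10 were higher and 1 lower, a split that turned with the scaling to 5 higher and 9 lower after quantile normalisation and 2 higher and 4 lower with a depth term. It was 2 higher and 4 lower without ID150584, and 19 were higher without Myc ID125324.

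Genes of nucleotide synthesis fell too. Of 13 purine synthesis genes 11 fell and 1 rose (84.6% lower, median -1.36), and of 17 pyrimidine and deoxynucleotide genes 13 fell and 1 rose (76.5% lower, median -1.06). Impdh1, the entry to guanine nucleotides, had 4.99, 6.24 and 4.03 eRPKM in Myc-off tumours, against 33.8, 38.2 and 39.9 in Myc tumours and 1.53, 2.31 and 4.48 in control livers. Pfas, a step of purine ring synthesis, had 18.2, 11.2 and 13.6 in Myc-off tumours and 46.7, 51.9 and 52.8 in Myc tumours. Prps2 had 21.2, 5.19 and 9.71 in Myc-off tumours and 44.2, 45.3 and 48.2 in Myc tumours. This synthetase of phosphoribosyl pyrophosphate differed among the Myc-off IDs beyond the spread between tumours of an ID (adjusted p = 1.6e-06). Cad, which starts pyrimidine synthesis, had 16.5, 21.9 and 22.1 in Myc-off tumours and 65.8, 69.2 and 72.6 in Myc tumours. Uck2, the uridine-cytidine kinase of the salvage path, had 24.6, 14.8 and 15.9 in Myc-off tumours and 51.9, 58.5 and 71.3 in Myc tumours, all above the 4.07 to 9.67 of control livers.

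Amino acid uptake, folate and polyamine genes fell in part. Of 18 amino acid transporters 7 fell and 2 rose, and the falls were steep. Slc7a1, the carrier of arginine and lysine, had 3.72, 4.19 and 3.91 eRPKM in Myc-off tumours, against 32.6, 36.5 and 45.4 in Myc tumours and 0.452, 0.804 and 1.20 in control livers. Slc1a5, a glutamine carrier, had 6.24, 4.71 and 10.3 in Myc-off tumours and 45.2, 48.4 and 53.5 in Myc tumours. Slc7a5, which takes up leucine, had 13.2, 5.60 and 12.8 in Myc-off tumours and 44.0, 48.8 and 53.5 in Myc tumours. All 3 carriers stayed above every control ID. The 18 genes of serine and folate metabolism split into 7 falls and 4 rises (6 and 1 in the depth fit over the tumour IDs alone): Mthfd1l, a mitochondrial folate enzyme, had 8.56, 5.08 and 9.87 in Myc-off tumours and 27.4, 34.6 and 40.8 in Myc tumours. The liver's cytosolic folate enzyme Aldh1l1 went the other way, with 39.3, 66.2 and 55.2 in Myc-off tumours, 3.78, 5.79 and 12.3 in Myc tumours and 68.9, 142 and 218 in control livers (2.81 ± 0.34, adjusted p = 3.6e-08). Of 12 polyamine genes 7 fell and 3 rose, with spermidine synthase Srm at 23.3, 34.6 and 34.4 in Myc-off tumours and 87.8, 96.9 and 108 in Myc tumours. Sat1, which breaks polyamines down, was higher at 107, 79.2 and 85.7 in Myc-off tumours against 56.1, 61.5 and 69.6 in Myc tumours. Genes of Atf4 and the integrated stress response, which control several of these carriers, gave 2 rises and 1 fall among 17.

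The cell cycle lists fell, and most replication and mitosis genes stayed above normal liver. All 42 DNA replication genes were lower in Myc-off tumours (median -1.37), 37 of 38 mitosis and spindle genes (median -1.45), and 18 of 25 genes of G1 cyclins, kinases and E2F factors (median -0.80). Pole, the catalytic subunit of polymerase epsilon, had 4.13, 5.01 and 5.42 eRPKM in Myc-off tumours, 26.3, 28.9 and 33.4 in Myc tumours and 0.870, 1.57 and 6.35 in control livers. Cdc7, the kinase that fires origins, had 2.59, 2.75 and 4.80 in Myc-off tumours, 19.1, 21.2 and 22.5 in Myc tumours and 0.0516, 0.254 and 1.09 in control livers. Espl1, the separase that parts sister chromatids, had 3.46, 3.87 and 4.86 in Myc-off tumours, 31.7, 34.3 and 38.1 in Myc tumours and 0.0524, 0.292 and 0.535 in control livers. These genes were named among those whose Myc-off and Myc IDs do not overlap, so their separation follows from the choice. Bub1b, a spindle checkpoint kinase, had 8.71, 8.48 and 12.3 in Myc-off tumours and 38.2, 47.4 and 58.6 in Myc tumours. Ttk, another, had 5.18, 7.93 and 6.84 in Myc-off tumours and 29.04, 33.1 and 34.9 in Myc tumours. Against control liver 37 of the 38 mitosis genes and 36 of the 42 replication genes remained higher, beside 5279 (36.3%) of all genes. Mcm10, a replication initiation factor, lay below control liver instead, with 3.14, 4.50 and 5.04 in Myc-off tumours, 20.1, 22.9 and 24.96 in Myc tumours and 11.7, 17.6 and 37.7 in control livers.

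Regulators of G1 and chromatin copying moved with them. E2f8, a repressor of E2F targets, had 6.68, 5.90 and 7.58 eRPKM in Myc-off tumours, 22.9, 26.7 and 28.1 in Myc tumours and 7.04, 12.5 and 21.8 in control livers. E2f1, an activator, had 5.11, 7.14 and 5.11 in Myc-off tumours and 13.6, 16.8 and 19.4 in Myc tumours. Cdk6, a G1 kinase, had 15.2, 13.9 and 10.0 in Myc-off tumours and 38.6, 42.2 and 44.7 in Myc tumours. Of 60 replication-dependent histone genes 9 fell (15%), under the share of all genes, with 3 falls left without ID151964 and 21 in the depth fit over the tumour IDs alone. Of 20 DNA methylation and Polycomb genes 13 fell and 1 rose. Uhrf1, which guides the maintenance methyltransferase, had 12.8, 12.9 and 17.6 in Myc-off tumours and 54.6, 57.5 and 67.8 in Myc tumours, and Hells, a remodeller, fell by 1.99 (SE 0.32). Among 6 CDK inhibitors Cdkn1c and Cdkn2b passed, neither without overlap. Cdkn1c had 180, 91.5 and 87.5 in Myc-off tumours and 42.6, 66.8 and 87.8 in Myc tumours, and without ID150584 its log2 fold change was 0.48 (adjusted p = 0.32). Cdkn1b, which holds G1 kinases, had 37.5, 29.7 and 34.6 in Myc-off tumours and 23.7, 27.9 and 29.4 in Myc tumours, an adjusted p of 0.051. Cdkn2b had 0.719, 4.38 and 1.33 in Myc-off tumours and 0.323, 0.512 and 0.917 in Myc tumours, and without ID151964 its adjusted p was 0.13.

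Genes around p53 and cell death changed in both directions. Of 23 p53 target genes 6 rose and 4 fell, 26.1% and 17.4%, near the shares of all genes, and 2 falls were left without ID153344. Fas, the death receptor, had 41.7, 38.8 and 34.0 eRPKM in Myc-off tumours, against 7.17, 8.69 and 9.69 in Myc tumours and 21.3, 28.7 and 34.9 in control livers. Trp53inp1, which promotes autophagy and death, had 60.7, 74.5 and 74.5 in Myc-off tumours and 15.4, 16.8 and 34.0 in Myc tumours. Btg2, an antiproliferative factor, had 41.5, 58.9 and 49.7 in Myc-off tumours and 13.6, 16.3 and 25.5 in Myc tumours. By contrast Gtse1, made in G2 and mitosis, fell by 1.61 (SE 0.24) and Aen, a nuclease of apoptosis, by 1.03 (SE 0.16). In the Bcl2 family 4 of 16 rose and 2 fell. Bmf, a killer of the BH3-only group, had 31.5, 26.0 and 34.5 in Myc-off tumours and 5.12, 6.66 and 7.71 in Myc tumours. The survival genes Bcl2l1 and Mcl1 rose too: Mcl1 had 96.4, 91.3 and 89.1 in Myc-off tumours and 53.2, 60.0 and 68.0 in Myc tumours (0.62 ± 0.10), and Bcl2l1 had 25.3, 30.5 and 29.6 in Myc-off tumours and 12.3, 15.4 and 21.6 in Myc tumours.

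**Figure D2:**
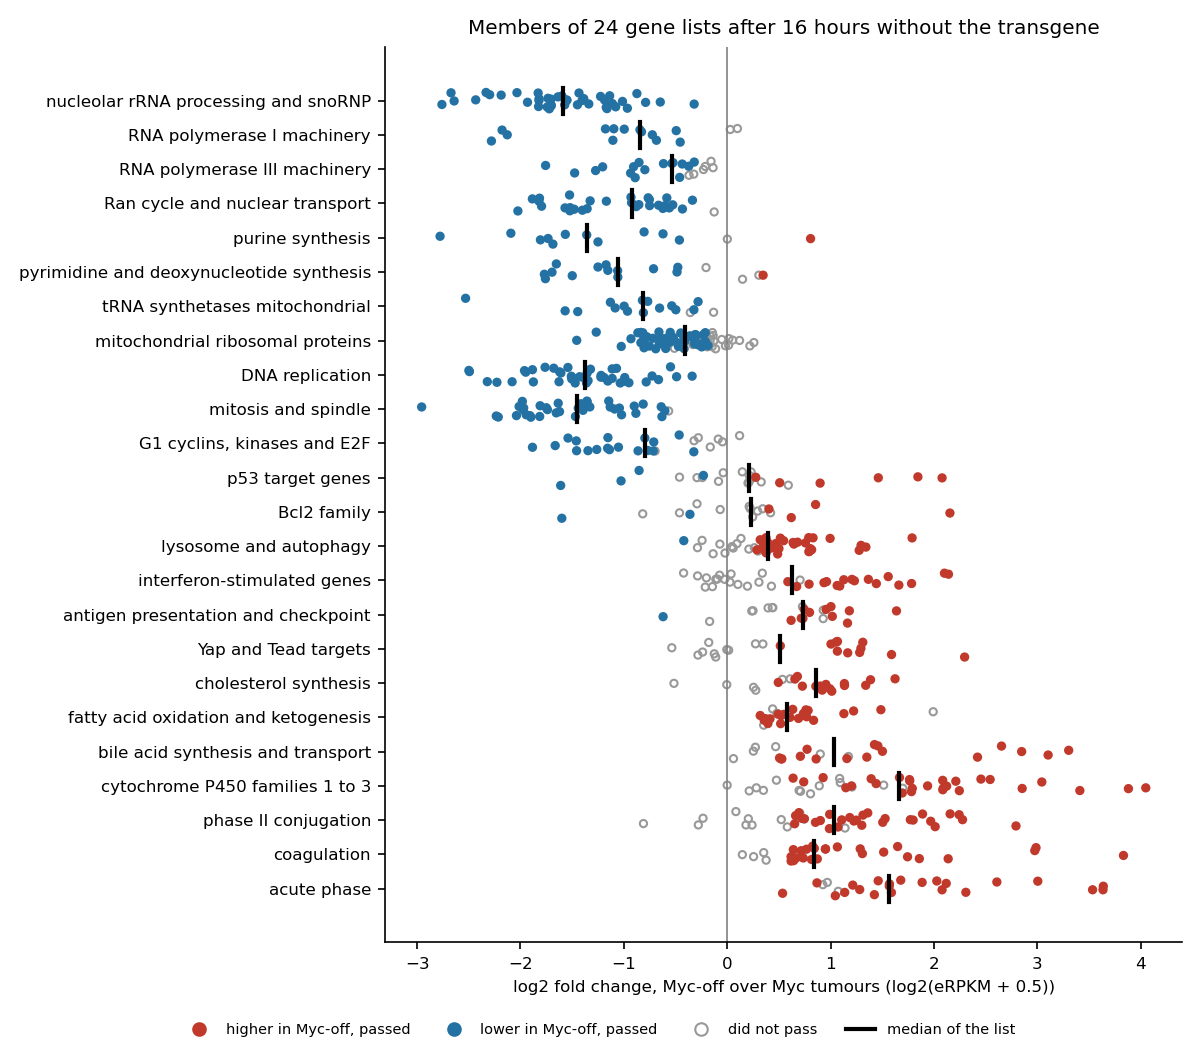
Each point is a tested member of a gene list, at its log2 fold change of Myc-off over Myc tumours on the horizontal axis. Filled points passed an adjusted p of 0.05, open points did not, and the bar is the median of the list, -1.58 for the nucleolar list and 1.67 for the cytochrome P450 list.

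The 15 largest rises held genes of hepatocytes, genes of epithelia and others, with Krt7 the only member of the duct marker list. Cldn6, a tight junction protein of embryonic epithelium, had 12.3, 79.6 and 127 eRPKM in Myc-off tumours, 0.237, 1.43 and 6.44 in Myc tumours and 0, 0.416 and 1.04 in control livers (4.30 ± 0.88, adjusted p = 1.4e-04). Psca, a surface antigen of epithelia, had 3.45, 25.6 and 10.3 in Myc-off tumours and 0.0235, 0.0994 and 0.318 in Myc tumours, and was listed at 0 in all control livers. With any Myc-off ID left out it no longer met the minimum level for testing. Krt7, a duct keratin, had 8.56, 31.9 and 28.01 in Myc-off tumours and 0.169, 1.40 and 1.72 in Myc tumours. Guca2b, a peptide that activates guanylate cyclase, had 17.1, 18.3 and 11.6 in Myc-off tumours and 0.149, 0.636 and 1.45 in Myc tumours. ID150584 was the lowest of the Myc-off IDs for Cldn6, Psca and Krt7 but not for Guca2b. Slc44a4, a transporter, had 14.1, 27.9 and 30.1 in Myc-off tumours and 0.627, 0.997 and 1.42 in Myc tumours, and Klhl13, a ubiquitin ligase adaptor, 8.76, 98.7 and 75.7 in Myc-off tumours and 0.597, 2.10 and 4.94 in Myc tumours. Apart from Klhl13 in ID150584, which lay within the 4.46 to 11.8 of control livers, the Myc-off IDs were above every control ID in these 6 genes. The rest of the set, which comprised Cyp2a12, Cyp2f2, Vnn1, F11, C9, Urad, Sprr1a, Saa1 and Saa2, had log2 fold changes of 3.64 to 4.05. Saa1 and Saa2 are near-identical acute phase genes whose shared reads may have been split, and without ID151964 Saa1 missed the threshold (2.82, adjusted p = 0.051).

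Regulators of hepatocyte identity rose in part. Of 23 hepatocyte transcription factors 12 rose and 1 fell (52.2% higher, median 0.52). Foxa3, a forkhead factor, had 75.0, 66.5 and 80.8 eRPKM in Myc-off tumours, 25.6, 33.6 and 36.6 in Myc tumours and 64.1, 72.8 and 81.0 in control livers, and so lay within the range of normal liver after 16 hours. Xbp1, which drives secretion, had 113, 120 and 120 in Myc-off tumours and 48.1, 55.7 and 62.2 in Myc tumours. Hnf4a, the central factor of the hepatocyte, had 119, 155 and 109 in Myc-off tumours and 74.7, 78.7 and 88.3 in Myc tumours (0.64 ± 0.10), and its log2 fold change was 0.49 without ID151964. It was named for its role after its values were seen, and it lies in a run of 38 neighbouring genes of which 37 were highest in ID151964 among the Myc-off IDs. Of 27 metabolic nuclear receptors 10 rose and 6 fell, with 6 rises left without ID150584, and 5 rises and 2 falls in the depth fit over the tumour IDs alone. Ppara, the receptor of fatty acids, had 38.2, 57.1 and 42.6 in Myc-off tumours, 14.3, 18.2 and 24.6 in Myc tumours and 68.9, 97.7 and 110 in control livers. Nr5a2, which acts on bile acid genes, had 39.5, 33.5 and 41.7 in Myc-off tumours and 18.3, 19.9 and 24.2 in Myc tumours.

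Bile acid, amino acid and drug metabolism genes rose in most cases. Of 22 genes of bile acid synthesis and transport 16 rose (72.7%, median 1.03), of 19 genes that break down aromatic amino acids and histidine 17 (89.5%, median 0.89), of 41 cytochrome P450 genes of families 1 to 3 27 (65.9%, median 1.67) and of 40 phase II conjugation genes 28 (70.0%, median 1.03). None was lower in any of these lists. Cyp7a1, the rate-limiting enzyme of bile acid synthesis, had 38.5, 52.4 and 37.3 eRPKM in Myc-off tumours, 2.10, 3.70 and 7.13 in Myc tumours and 36.9, 65.5 and 101 in control livers (3.30 ± 0.48, adjusted p = 1.2e-06). Baat, which conjugates bile acids, had 37.6, 97.2 and 71.3 in Myc-off tumours and 4.01, 6.87 and 12.1 in Myc tumours. Cyp2f2, a periportal P450, had 5.47, 36.3 and 46.6 in Myc-off tumours, 0.147, 0.935 and 3.21 in Myc tumours and 109, 161 and 196 in control livers. Cyp7a1 thus reached the range of normal liver, whereas Cyp2f2 stayed below it. Uroc1, an enzyme of histidine breakdown, had 94.2, 71.8 and 72.7 in Myc-off tumours and 15.9, 21.6 and 26.7 in Myc tumours. Sult1a1, a sulfotransferase of phenols, had 78.3, 134 and 76.6 in Myc-off tumours and 16.5, 25.03 and 33.3 in Myc tumours. These counts depend on the fit: without ID153344 the P450 list had 15 rises and without ID151964 18, and in the depth fit over the tumour IDs alone the bile acid, amino acid, P450 and phase II lists had 5, 8, 9 and 8 rises.

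Nitrogen and sugar metabolism gave mixed lists. Of 11 urea cycle genes 7 rose and 1 fell, with 4 rises given a depth term and 2 in the depth fit over the tumour IDs alone. Otc, ornithine transcarbamylase, had 77.2, 62.8 and 73.5 eRPKM in Myc-off tumours and 29.5, 39.8 and 48.4 in Myc tumours, and in the second of these fits its adjusted p was 0.11. Of 14 genes of gluconeogenesis and glycogen 9 rose and 2 fell, and of 26 glycolysis genes 5 rose and 6 fell, with 2 rises left in each list in the depth fit over the tumour IDs alone. Hk2, the hexokinase of tumours, had 3.07, 7.91 and 5.52 in Myc-off tumours and 18.5, 20.1 and 25.5 in Myc tumours. The phosphofructokinase Pfkp had 13.8, 4.60 and 2.96 in Myc-off tumours and 20.3, 24.3 and 24.96 in Myc tumours, and differed among the Myc-off IDs (adjusted p = 1.9e-07). Pck1, which makes phosphoenolpyruvate for glucose, had 15.1, 106 and 31.1 in Myc-off tumours and 0.606, 3.92 and 13.04 in Myc tumours (3.33 ± 0.95), but without ID151964 it missed the threshold (2.57, adjusted p = 0.058).

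Lipid genes rose, synthesis and breakdown alike. Of 21 cholesterol synthesis genes 15 rose (71.4%, median 0.86), of 20 fatty acid synthesis genes 9 (45.0%, median 0.50) and of 24 genes of fatty acid oxidation and ketogenesis 20 (83.3%, median 0.58), again with none lower. Sc5d, a sterol desaturase, had 63.3, 92.3 and 90.7 eRPKM in Myc-off tumours, 26.9, 31.8 and 33.9 in Myc tumours and 90.8, 133 and 165 in control livers. Mvd, of the mevalonate pathway, had 20.1, 38.5 and 36.4 in Myc-off tumours and 7.42, 9.39 and 12.2 in Myc tumours. Scd1, the stearoyl-CoA desaturase, had 50.8, 105 and 100 in Myc-off tumours and 11.8, 16.0 and 28.5 in Myc tumours. Pnpla3, a lipid droplet protein driven by feeding, had 14.2, 26.4 and 19.9 in Myc-off tumours and 1.16, 1.84 and 2.38 in Myc tumours, while control livers spread over 0.478 to 34.8. Food intake is not given in the labels, and in the depth fit over the tumour IDs alone the oxidation list had 2 rises, the fatty acid synthesis list 5 and the cholesterol list 12.

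Secreted proteins of the liver rose as well. The lists of coagulation (25 of 29), complement (19 of 27), apolipoprotein (18 of 20) and acute phase genes (22 of 25) held no fall. In the depth fit over the tumour IDs alone the rises numbered 14 in coagulation, 12 in complement, 5 among apolipoproteins and 11 in the acute phase list. F11, a coagulation factor, had 19.5, 71.3 and 46.5 eRPKM in Myc-off tumours, 1.51, 2.23 and 4.47 in Myc tumours and 58.3, 76.0 and 93.0 in control livers. C9, of the membrane attack complex, had 15.7, 54.2 and 45.8 in Myc-off tumours, 0.892, 1.92 and 3.33 in Myc tumours and 64.7, 118 and 165 in control livers. Apof had 112, 123 and 119 in Myc-off tumours and 29.8, 42.6 and 52.97 in Myc tumours, close together in the Myc-off IDs. Fgl1, an acute phase hepatokine, ranged widely, at 7.003, 97.2 and 41.5 in Myc-off tumours against 0.0796, 2.62 and 6.005 in Myc tumours. Without ID151964 the acute phase list had 14 rises. In iron handling 11 of 22 genes rose (6 with a depth term, 3 with it over the tumour IDs alone), and the hepcidin regulator Hfe2 had 63.6, 63.2 and 51.7 in Myc-off tumours and 10.1, 16.1 and 23.6 in Myc tumours. Igfals, the carrier of Igf1 that growth hormone induces, had 25.7, 32.4 and 31.3 in Myc-off tumours, 5.27, 6.25 and 7.50 in Myc tumours and 110, 123 and 146 in control livers. The Myc-off IDs thus lay between Myc tumours and normal liver, apart from both.

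Interferon and antigen presentation genes rose. Of 34 interferon-stimulated genes 17 rose and none fell (50%, median 0.63). All 17 rises were free of overlap, as were 2544 of the 3232 rises over all genes. Of the 34 genes 5 differed among the Myc-off IDs. Of 21 genes of antigen presentation and checkpoints 11 rose and 1 fell (52.4% higher, median 0.73). Tapbp, the chaperone that loads peptides on class I molecules, had 72.3, 80.8 and 72.0 eRPKM in Myc-off tumours, 20.4, 23.7 and 26.3 in Myc tumours and 43.2, 53.7 and 62.9 in control livers (1.64 ± 0.13, adjusted p = 6.5e-12). H2-K1, a class I heavy chain, had 63.8, 69.8 and 58.6 in Myc-off tumours, 24.1, 29.1 and 29.98 in Myc tumours and 59.8, 67.8 and 74.2 in control livers. Iigp1, an immunity GTPase, had 43.9, 59.9 and 45.9 in Myc-off tumours and 9.15, 11.0 and 15.1 in Myc tumours, and Gbp6, a guanylate-binding protein, 4.63, 5.41 and 4.97 in Myc-off tumours and 0.614, 0.744 and 0.888 in Myc tumours. T and NK cell markers summed to 32.4 to 102 eRPKM in Myc-off tumours against 29.1 to 55.7 in Myc tumours, with 2 of 16 higher. Macrophage markers summed to 507 to 869 in Myc-off tumours against 451 to 729 in Myc tumours, with 4 of 17 higher (2 without ID151964). The part of these cells in the rise of interferon and class I genes was not tested. Class I genes have near-identical copies, so the share of H2-K1 itself is uncertain.

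Lysosome and autophagy genes, which Tfeb switches on and Myc is known to oppose, rose in 30 of 45 cases with 1 fall. The share higher was 66.7% and the median 0.39. Of the rises 28 were free of overlap, beside 2544 of the 3232 over all genes. Map1lc3a, the autophagosome protein LC3, had 29.6, 48.0 and 35.5 eRPKM in Myc-off tumours, 8.31, 10.4 and 12 in Myc tumours and 41.5, 55.3 and 63.6 in control livers. Smpd1, acid sphingomyelinase, had 32.1, 32.7 and 32.8 in Myc-off tumours, 11.4, 12.6 and 14.6 in Myc tumours and 29.2, 34.2 and 42.9 in control livers, with hardly any spread among the Myc-off IDs. Wipi1, which helps form autophagosomes, had 6.48, 8.77 and 7.87 in Myc-off tumours and 1.90, 2.60 and 4.24 in Myc tumours. Of this list 24 members rose with a depth term over all IDs and 16 with that term over the tumour IDs alone.

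Genes of growth signalling moved to different degrees. A list of Yap and Tead factors, their cofactors and targets held 21 tested genes, of which 11 rose and none fell (52.4%, median 0.51). Of these rises 6 were free of overlap, and the list had 7 rises without ID153344 and 8 without ID151964. Cyr61, a matricellular target of Yap, had 11.7, 55.3 and 37.97 eRPKM in Myc-off tumours, 4.70, 5.11 and 9.11 in Myc tumours and 8.59, 13.8 and 18.9 in control livers. Amotl2, a feedback inhibitor of Yap, had 25.2, 36.5 and 31.2 in Myc-off tumours and 10.0, 12.3 and 14.5 in Myc tumours. Among 28 genes of MAP kinase feedback and early response 9 rose and 2 fell, with 5 rises left without ID151964. Dusp10 had 7.09, 10.5 and 8.93 in Myc-off tumours and 1.51, 1.84 and 4.68 in Myc tumours, whereas the phosphatases Dusp2 and Dusp7 fell, Dusp7 to 5.91, 6.42 and 8.40 in Myc-off tumours against 19.7, 21.2 and 26.6 in Myc tumours. Of 20 Wnt targets and pericentral genes 10 rose and 3 fell (median 0.69), with 5 rises left without ID153344 and 2 rises and 2 falls in the depth fit over the tumour IDs alone. Tnfrsf19 and Znrf3, regulators of Wnt signalling, were among the falls: Tnfrsf19 had 1.5, 2.92 and 1.98 in Myc-off tumours and 9.96, 11.1 and 16.9 in Myc tumours. Of 21 genes of insulin and Igf signalling 8 rose and 1 fell, with 4 rises left without ID153344 and 2 in the depth fit over the tumour IDs alone. Akt1, a kinase of insulin signalling, had 35.8, 29.1 and 27.2 in Myc-off tumours and 47.5, 54.5 and 60.6 in Myc tumours, while Irs1, the insulin receptor substrate, had 15.5, 21.4 and 19.7 in Myc-off tumours and 5.50, 7.97 and 10.1 in Myc tumours. In the Notch list 3 of 19 rose and 2 fell, under the share of all genes, and 6 rose with a depth term.

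Fetal and imprinted genes largely stayed on. Of 30 oncofetal and imprinted genes 9 rose (30%, beside 22.2% of all genes) and 1 fell (5 and 1 in the depth fit over the tumour IDs alone). Against control liver 26 remained higher, beside 36.3% of all genes. Peg3, an imprinted zinc finger gene, had 145, 140 and 142 eRPKM in Myc-off tumours, 65.8, 67.3 and 79.4 in Myc tumours and 16.7, 20.7 and 26.2 in control livers, and so moved away from normal liver. Lin28b, which blocks let-7 maturation, was the fall, with 5.69, 1.66 and 0.169 in Myc-off tumours and 14.7, 18.6 and 20.2 in Myc tumours. Its value in ID153344 decided the call, since without that ID its log2 fold change was -2.33 instead of -3.14 (adjusted p = 0.068). Epcam, a surface protein of liver progenitors and ducts, had 3.07, 26.4 and 20.4 in Myc-off tumours, 0.216, 1.19 and 2.60 in Myc tumours and 0.172, 0.764 and 1.26 in control livers.

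Single core clock genes differed between the groups, though the list as a whole did not stand out. Of 18 circadian genes 3 rose (16.7%) and 6 fell (33.3%), near the 22.2% and 28.3% of all genes. The counts were 6 and 6 after quantile normalisation and 4 and 1 in the depth fit over the tumour IDs alone. Arntl, the Bmal1 activator, had 7.98, 8.76 and 6.30 eRPKM in Myc-off tumours, 1.43, 1.78 and 1.98 in Myc tumours and 0.998, 1.84 and 9.77 in control livers (1.85 ± 0.42, adjusted p = 4.0e-04). Its repressor Nr1d1, known as Rev-erb alpha, had 1.83, 2.62 and 4.40 in Myc-off tumours, 7.65, 10.3 and 17.3 in Myc tumours and 31.6, 44.6 and 77.4 in control livers (-1.74 ± 0.26, adjusted p = 1.3e-06), but -0.75 in that last fit (adjusted p = 0.18). Rora, the activator that competes with it, had 4.13, 12.5 and 10.2 in Myc-off tumours, 1.70, 2.09 and 2.47 in Myc tumours and 22.4, 25.6 and 30.6 in control livers. Nr1d2, the second Rev-erb, had 15.1, 22.5 and 16.9 in Myc-off tumours and 27.8, 31.6 and 33.2 in Myc tumours. Clock, the partner of Arntl, had 20.2, 24.1 and 19.6 in Myc-off tumours and 20.6, 22.2 and 23.8 in Myc tumours and did not pass. The period gene Per2 had 6.30, 12.5 and 11.4 in Myc-off tumours and 4.85, 6.19 and 10.2 in Myc tumours, with overlap. These transcripts cycle with the time of day in liver, and since that time is not given, clock phase and the switch-off cannot be told apart.

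**Figure D3:**
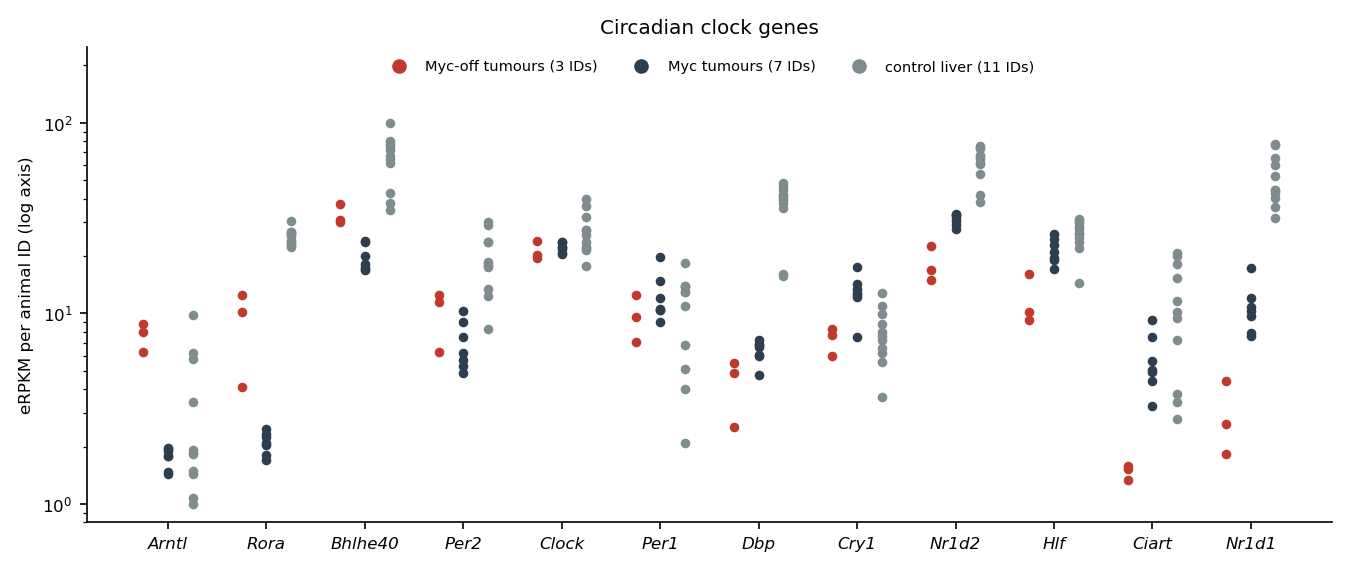
Points are eRPKM per animal ID on a log axis for 12 circadian genes, in Myc-off tumours, Myc tumours and control livers from left to right. Arntl lies at 6.30 to 8.76 in the 3 Myc-off IDs and at 1.43 to 1.98 in the 7 Myc IDs, and Nr1d1 at 1.83 to 4.40 in the Myc-off IDs and 7.65 to 17.3 in the Myc IDs.

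Markers of other cell types moved in part. Of the 13 tested duct (cholangiocyte) markers 10 rose (6 in the depth fit over the tumour IDs alone), and their sum was 212 to 458 eRPKM in Myc-off tumours, 130 to 191 in Myc tumours and 123 to 164 in control livers, without overlap between the tumour groups. Krt19, a defining duct keratin, had 0.652, 22.4 and 6.44 in Myc-off tumours and 0.0649, 0.188 and 0.506 in Myc tumours, a log2 fold change of 2.94 with all IDs and 1.94 without ID151964. Neutrophil markers summed to 219 to 566 in Myc-off tumours against 57.2 to 373 in Myc tumours, with 2 of 14 higher and 0 without ID151964. Sinusoidal endothelial markers summed to 69.8 to 181 in Myc-off tumours against 44.5 to 116 in Myc tumours, and 5 of 13 rose, but 1 without ID151964 and 1 without ID153344. Of 16 endothelial markers 2 fell (0 without ID150584 or ID153344) and none rose, and of 16 stellate and fibroblast markers none passed in either direction at an adjusted p under 0.05 in limma. In bulk tissue, more cells of a type and more RNA per cell cannot be told apart, and the part of these cells in the rises described above was not tested.

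The distance to normal liver differed by list. Of the 4111 genes lower in Myc-off tumours, 1641 were still above control liver, 690 were below it and 1780 did not differ from it in the test. Of the 3232 higher genes, 1027 were still below control liver, 1025 above it and 1180 did not differ from it in the test. Against control liver 8423 genes (57.9%) were called in Myc-off tumours and 11631 (79.9%) in Myc tumours. Both comparisons share the control livers, but the first has 3 tumour IDs and the second 7. The lower count therefore does not measure a shorter distance to normal liver. The nucleolar list had a median of 0.02 in Myc-off and 1.61 in Myc tumours against control liver, and the mitosis list 3.05 in Myc-off and 4.69 in Myc tumours. Phase II conjugation had -1.74 in Myc-off and -2.65 in Myc tumours, coagulation -0.28 in Myc-off and -1.05 in Myc tumours, and antigen presentation -0.05 in Myc-off and -0.94 in Myc tumours. The nucleolar and antigen presentation medians of Myc-off tumours therefore lay near normal liver at 16 hours, and those of mitosis and of drug metabolism did not.

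**Figure D4:**
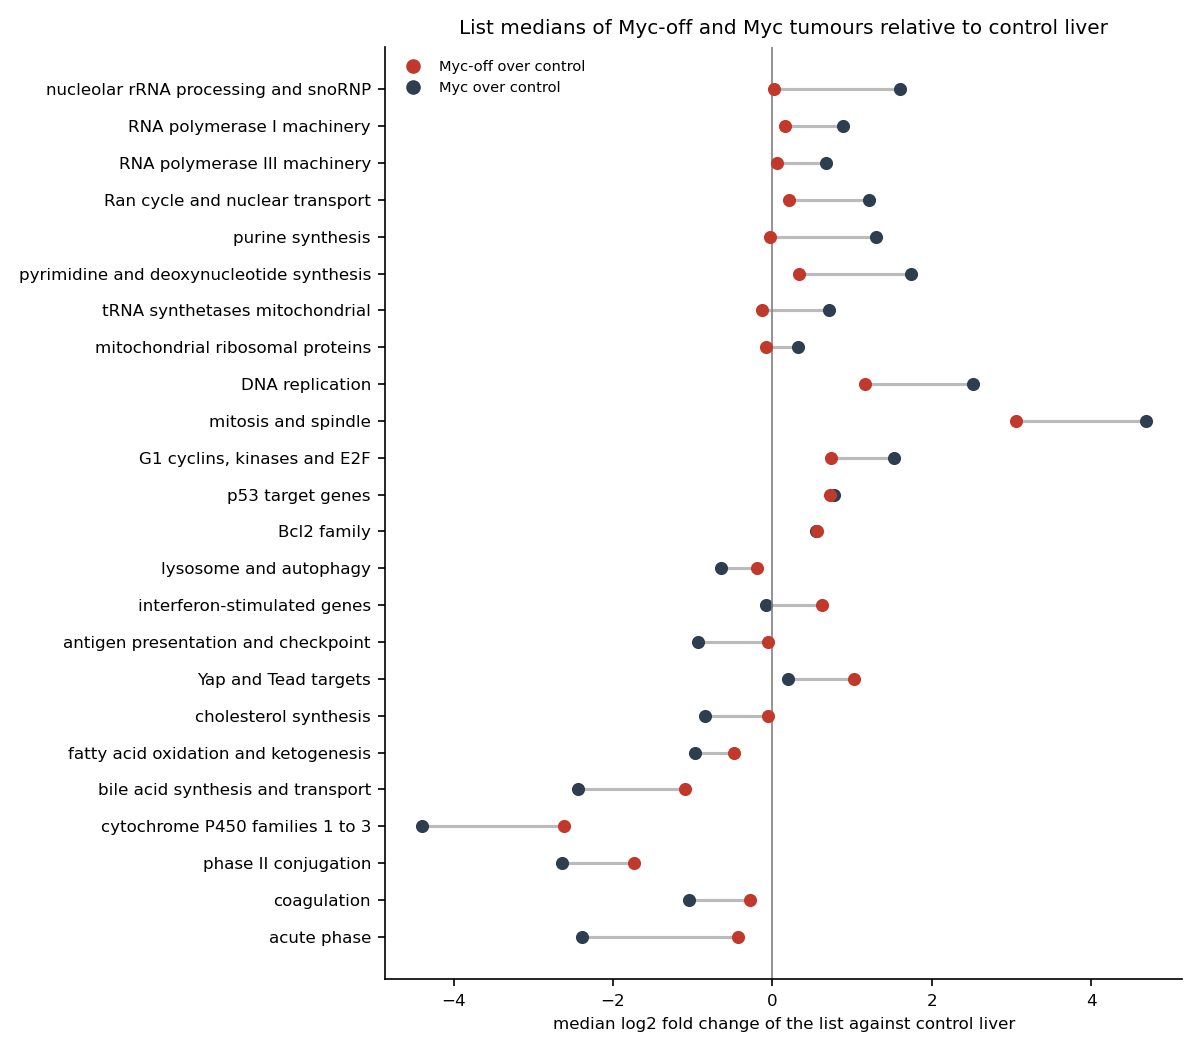
Points are the median log2 fold change of each gene list against control liver, in Myc-off tumours and in Myc tumours, on the horizontal axis. The nucleolar list lies at 0.02 in Myc-off and 1.61 in Myc tumours, and the mitosis list at 3.05 in Myc-off and 4.69 in Myc tumours.

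The 3 Myc-off animals did not lie equally far from the Myc tumours. Of the 1140 rises of at least 2-fold, ID150584 had the least changed value in 747 (65.5%), ID151964 in 164 (14.4%) and ID153344 in 229 (20.1%). Among the 114 such rises in 9 hepatocyte lists the share of ID150584 was 78.9%. Falls were spread otherwise: of 1446 falls of at least 2-fold the least changed value was in ID150584 for 485, in ID151964 for 380 and in ID153344 for 581. In the 103 such falls of the nucleolar, replication and mitosis lists it was in ID153344 for 62 and in ID150584 for 10. Thus the animal with the smallest rises in hepatocyte genes was not the one with the smallest falls in growth genes. With the spread between tumours of an ID taken from Myc-off and Myc tumours, 3220 genes (22.1%) differed among the 3 Myc-off IDs, and 811 with the spread of the 8 Myc-off tumours alone. Of the 3220, 1745 were also called between Myc-off and Myc tumours. The largest differences in this test included Xist, Uty, Eif2s3y, Ddx3y and Kdm5d, genes that mark the sex of an animal. Sex was not a term in the fits, and these IDs have no sample from before the switch-off. Sex and starting level therefore cannot be told apart from an unequal response. Tumours of ID150584 differed among themselves in depth, and their hepatocyte markers summed to 1330, 837 and 2000 eRPKM, the last in the shallowest library. Leaving out ID150584, ID151964 or ID153344 left 7084, 6147 or 6394 genes called.

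**Figure D5:**
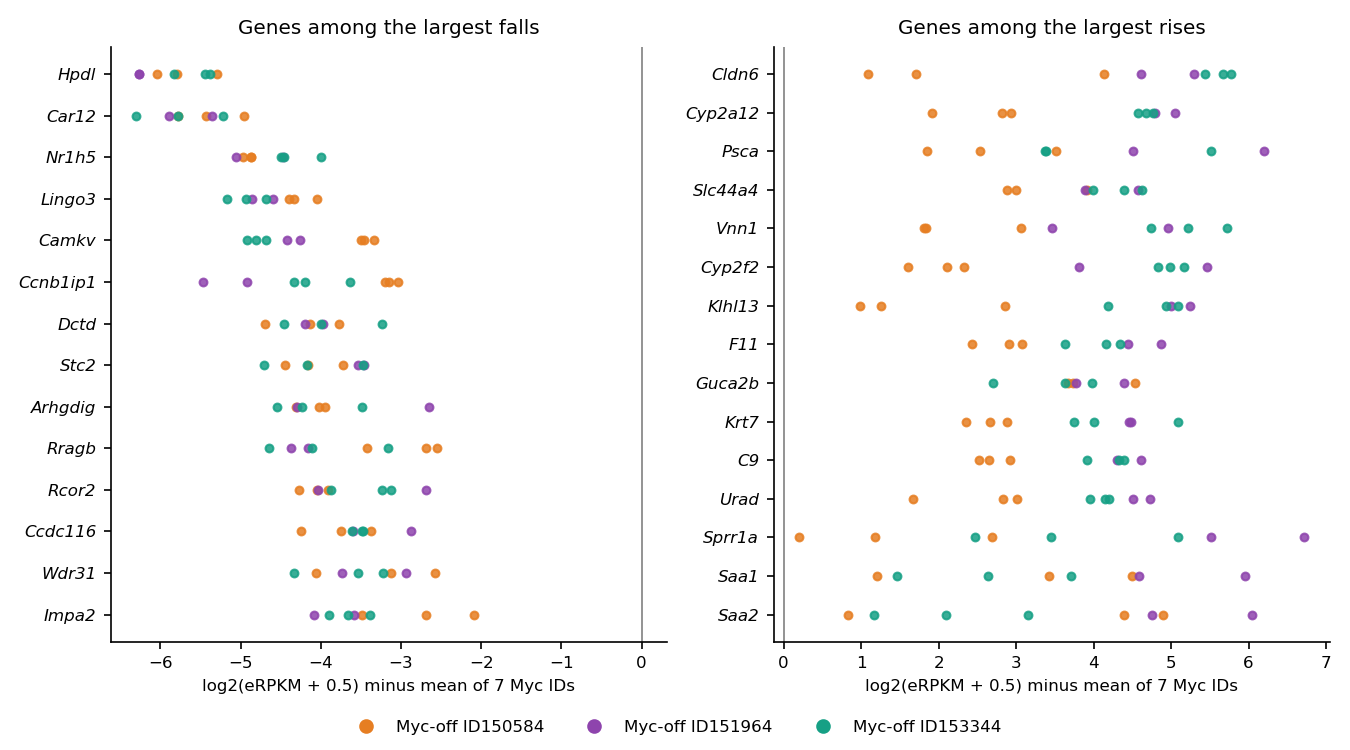
Points are single Myc-off tumours, coloured by animal ID, at their log2(eRPKM + 0.5) minus the mean of the 7 Myc IDs on the horizontal axis, for genes among the 15 largest falls and the 15 largest rises. ID150584 lies nearest to the Myc tumours for Cyp2f2, F11 and C9, as it did in 747 of the 1140 rises of at least 2-fold.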

How the data were processed

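The unit is exonic RPKM (eRPKM), as deposited by the authors in a table of 21671 genes and 46 libraries of total RNA depleted of ribosomal RNA. Per the labels' protocols libraries were made with the Ribozero and TruSeq v2 kits, and TruSeq v2 does not mark strand. The submitters' processing notes name TopHat, TopHat2 2.0.8 and the build mm9. Counter, annotation and denominator were not given in the sources used here. Low values were whole multiples of a gene's smallest step, which gave whole reads for 20031 genes (100.0% of values above 0 within 0.001 reads) and the depth of each library.

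Values were taken as log2(eRPKM + 0.5) and averaged over tumours of an ID. Tested genes (14548, with 7123 removed) had 1 eRPKM or more in 3 or more IDs. R 4.3.3 and limma 3.58.1 fitted all 4 groups (31 IDs) with a trended prior, two-sided with Benjamini-Hochberg adjustment, and fold changes on this scale understate low genes. Differences among Myc-off IDs were tested by limma's F over single Myc-off and Myc tumours. Lists were counted and not tested. The procedure was tested on simulated data.

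Members and lists were chosen with earlier results of these data known. Named genes are a fixed set of 10 and the 15 largest falls and rises without overlap and with a mean of at least 5 eRPKM in the higher group. By the same conditions they include up to 3 members per list in its main and 2 in the other direction. The Myc-Max, CDK inhibitor and clock lists and the 8 genes with the largest F are also named. Some of these are not reported here, and Hnf4a was added. Alternatives were other pseudocounts, filters, scalings, sample sets, depth terms and IDs left out. Reads of antisense or near-identical genes cannot be told apart.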

Additional observations from a re-analysis of the deposited data

Results flagged for a closer look

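Among the 139 genes checked in the 7 Myc IDs, 6 had an ID whose gap to the nearest other ID was large for the range of the group by Dixon's criterion. By chance about 1 in 20 genes is marked in this way. In 4 of the 6 it was ID126947, a single library. Myc tumour ID126947 had 9.11 eRPKM of Cyr61, where the other Myc IDs had 4.70 to 5.59. It had 4.68 of Dusp10 beside 1.512 to 2.002, 16.9 of Tnfrsf19 beside 9.96 to 12.03, and 34.0 of Trp53inp1 beside 15.4 to 22.9. Myc tumour ID128285 was lowest for H2-K1 at 24.1, with the others at 27.5 to 29.98. Myc tumour ID125320 was highest for Peg3 at 79.4, with the others at 65.8 to 71.0. All 6 genes were named among those without overlap of ID values, so their Myc-off values lie outside the Myc range by choice.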

How the results depend on the processing

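Of the 134 named genes called between Myc-off and Myc tumours, 111 kept their direction and call in all 24 alternatives, and 3 were not tested in some, Psca among them. The count of genes called ranged from 6147 to 8874 over the alternatives, except for a depth term fitted on the tumour IDs alone, which gave 4222 (1818 higher and 2404 lower) and was chosen after seeing the data. That fit left 16 of 69 gene lists with most of their tested members called in 1 direction, against 38 as reported and 30 to 46 otherwise. In it 19 named genes missed the threshold: Bcl2l1, Cdkn1c, Cyp2a12, Cyp2f2, Fgl1, Hnf4a, Krt19, Mlx, Mlxip, Mnt, Mxd1, Mxd4, Mycl, Nr1d1, Otc, Pck1, Sat1, Sprr1a and Ube2c. Mnt changed sign there (0.14). The cause was not tested. Clock, which did not pass, changed sign with median-ratio scaling (0.01), quantile normalisation (0.07), a depth term (0.18) and that term on the tumour IDs alone (0.07). Stk4 ranged from -0.26 without Myc-off ID151964 to 0.77 without ID150584, beside 0.36 with all IDs.

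Single IDs left out gave 6147 to 7281 genes called. Differences among the Myc-off IDs fell to 811 genes when the 8 Myc-off tumours alone gave the spread, and to 2446 without the shallowest Myc-off library. Fewer samples entered both fits, and the cause of the drop was not tested. Counting CACGCG and CGCGTG as E-boxes raised the share to 30.8% among lower genes, beside 18.2% among higher genes, 22% among genes not called and 23.6% of tested windows, since more letters count as a match. Calls against control liver stayed within 1.5 times. Read ceiling and the 3 Myc-off IDs limit the precision of abundant and of variable genes. No paired analysis was possible because replicate numbers were given in accession order and pair no samples.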

Other observations

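In Myc-off ID151964 a run of 38 neighbouring genes, from Sgk2 to Ncoa3 in the gene order of RefSeq on GRCm38.p6, was high in both tumours of the animal. The run was found by scanning the table, with a median over 5 neighbours of at least 1 on the log2 scale against the mean of the other Myc-off IDs, and the rule was chosen after seeing the data. In it 37 genes were highest in ID151964 among the 3 Myc-off IDs and 35 lay above all Myc IDs, with a median difference of 1.75 on the log2 scale. Stk4, the kinase Mst1 of the Hippo pathway, had 70.7 and 98.4 eRPKM in the 2 tumours of ID151964, 19.8, 22.9 and 17.0 in ID150584 and 27.3, 28.98 and 22.9 in ID153344, against 25.2 to 29.8 in the Myc IDs. The run also holds Hnf4a, Ctsa, Pltp, Acot8, Slpi, Sdc4, Mybl2 and Ube2c. Ube2c, a ubiquitin-conjugating enzyme of mitosis, had 28.2, 94.5 and 38.1 in Myc-off tumours and 66.9, 70.8 and 75.3 in Myc tumours, a log2 fold change of -0.60 with all IDs and -1.11 without ID151964. Over the run 16 genes were called higher and 3 lower between Myc-off and Myc tumours (median 0.37), and without ID151964 6 higher and 10 lower (median -0.18). Results on single genes of this run therefore depend on that animal.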
